A study of Mus musculus with 5 samples.

Results

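Type I interferon-stimulated genes are the genes that cells switch on after interferon-alpha or interferon-beta reaches them. The 40 genes described here were taken from a fixed list by gene symbol, and 39 of them were found among the 31053 genes of the count matrices. Mx2 carried no row there and was not analysed here. The study measured single-cell RNA in mouse skin, with 1 library for each of 5 groups on the C57BL/6 background. Untreated wild-type mice of 10 weeks gave 1 dermis and 1 epidermis library. Wild-type mice of 10 weeks, treated with imiquimod on the ear for 5 days, gave a dermis library. Mice of genotype K5. Pp6fl/fl gave an epidermis library at 10 weeks, before lesions, and a whole-skin library at 18 weeks, with psoriasis-like lesions. The last 2 are called non-lesional epidermis and lesional skin below. K5 stands for the keratin 5 promoter, which is active in basal keratinocytes, and Pp6 is the catalytic subunit of protein phosphatase 6. The labels name neither the Cre allele nor a control for it, and they do not say from which body site the other mice's skin came or how many mice a library holds.

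Type I interferons bind the receptor IFNAR1-IFNAR2, and the kinases JAK1 and TYK2 then signal to the complex ISGF3, which holds STAT2 and IRF9. ISGF3 binds the interferon-stimulated response element (ISRE) in the promoters of its target genes. Some products block virus entry (Ifitm3), hold budding viruses at the cell surface (Bst2) or bind or degrade foreign RNA (the Ifit and Oas families). Others sense nucleic acids (Ifih1, Ddx58, Zbp1, the Ifi200 genes) or feed back on the pathway (Irf7, Usp18). Imiquimod is a ligand of the receptor TLR7, which in plasmacytoid dendritic cells leads to type I interferon. Interferon-gamma acts through another element, the GAS, and raises some of the same genes.

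Counts are unique molecular identifiers (UMIs), each standing for 1 captured RNA molecule. Of 13288 cell barcodes, 11942 passed the filters, from 521 in untreated dermis to 4991 in imiquimod dermis, and 10181 of them were placed in a cell class by marker genes. The libraries held 3020790 to 41258087 UMIs, with medians of 3413 to 8220.5 UMIs per kept cell. The lesional library stood apart. It shared 0 barcodes with the other 4, which shared 1 to 27 between pairs. Its barcodes had 937 different starts of 6 bases against 332 to 480 in the others, and 13.4% of them began with 6 bases seen in imiquimod dermis. Whatever made this barcode set differ cannot be told apart from lesional skin in any comparison that uses it. Since each group has 1 library, no difference below has a replicate check and no test was made. Intervals are exact Poisson, binomial or conditional binomial 95% intervals and cover counting error only.

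The letters of the ISRE core stand in many promoters of these genes. RefSeq promoter windows on GRCm38.p6, 250 bases before to 50 after a transcription start, were at hand for 29 of the 40 genes. The ISRE core searched was GAAANNGAAA on either strand, so some genes show its reverse complement. It lay in a window of 16 of 29 of the genes, or 55.2% (35.7 to 73.6%), against 1079 of 27025 genes of the whole table, or 3.99%. The 6 genes below are those with an upstream core and the highest level in any cell class. Capitals mark every core within the stretch. Each stretch is read along the strand of its gene.

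Isg15, chr4:156200853-156200918, minus strand, with 3 overlapping cores that end 57 bases before the start:
Isg15: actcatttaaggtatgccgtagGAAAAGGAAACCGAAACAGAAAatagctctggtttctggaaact
Bst2, chr8:71537565-71537624, minus strand, with 2 overlapping cores that end 115 bases before the start:
Bst2: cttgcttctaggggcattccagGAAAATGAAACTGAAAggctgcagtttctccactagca
Ifi203, chr1:173942496-173942549, minus strand, with its core ending 26 bases before the start:
Ifi203: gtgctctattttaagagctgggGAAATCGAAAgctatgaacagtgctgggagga
Ifit1, chr19:34640782-34640835, plus strand, with 2 separate cores, the nearer of which ends 76 bases before the start:
Ifit1: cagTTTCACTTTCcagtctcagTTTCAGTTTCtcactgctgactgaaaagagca
Trim30a, chr7:104465198-104465251, minus strand, with its core ending 27 bases before the start:
Trim30a: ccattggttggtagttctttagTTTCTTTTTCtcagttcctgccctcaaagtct
Ifit3, chr19:34583385-34583438, plus strand, with its core ending 113 bases before the start:
Ifit3: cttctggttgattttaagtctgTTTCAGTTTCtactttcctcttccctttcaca

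In 8 of the genes a window held 2 or more cores, as in Isg15, Bst2, Ifit1 and Ifit3. Of the 2 cores of Ifit3 only the nearer is shown, and the other begins 156 bases before the start. The core was also found in 13 of 27 other interferon-stimulated genes outside the list (48.1%) and in 8 of 13 genes that lean to interferon-gamma (61.5%), so it did not mark the listed genes alone. The GAS core TTCNNNGAA, which reads the same on both strands, lay in 6 of 29 of the genes (20.7%), in 5 of 13 of the interferon-gamma-leaning genes (38.5%) and in 9.55% of all genes. A match in a window is a description of its letters and not evidence of a bound site. Of the 16 genes with an ISRE core, 8 reached a level of 50 CPM (counts per 1000000) in some cell class, and of the 13 without one, 4 did.

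Levels below are CPM of a class: the UMIs of a gene and of all genes were each summed over the cells of 1 class in 1 library. With classes of 20 or more cells, 28 combinations of class and library were available. In them 37 of the 39 genes reached 10 CPM somewhere, 17 reached 50 and 11 reached 100. Oas1g and Cmpk2 stayed under 10 CPM in all 28. The highest level of a gene lay in macrophages or monocytes for 9 genes, in endothelial cells for 9, in T cells, dendritic cells, neutrophils and Schwann cells or melanocytes for 5 each, in fibroblasts for 1 and in keratinocytes for none. The map of all genes by class shows 4 genes with broad high rows (Ifitm3, Ly6e, Ifi27l2a, Bst2) above a larger number of low, patchy ones.

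**Figure D1:**
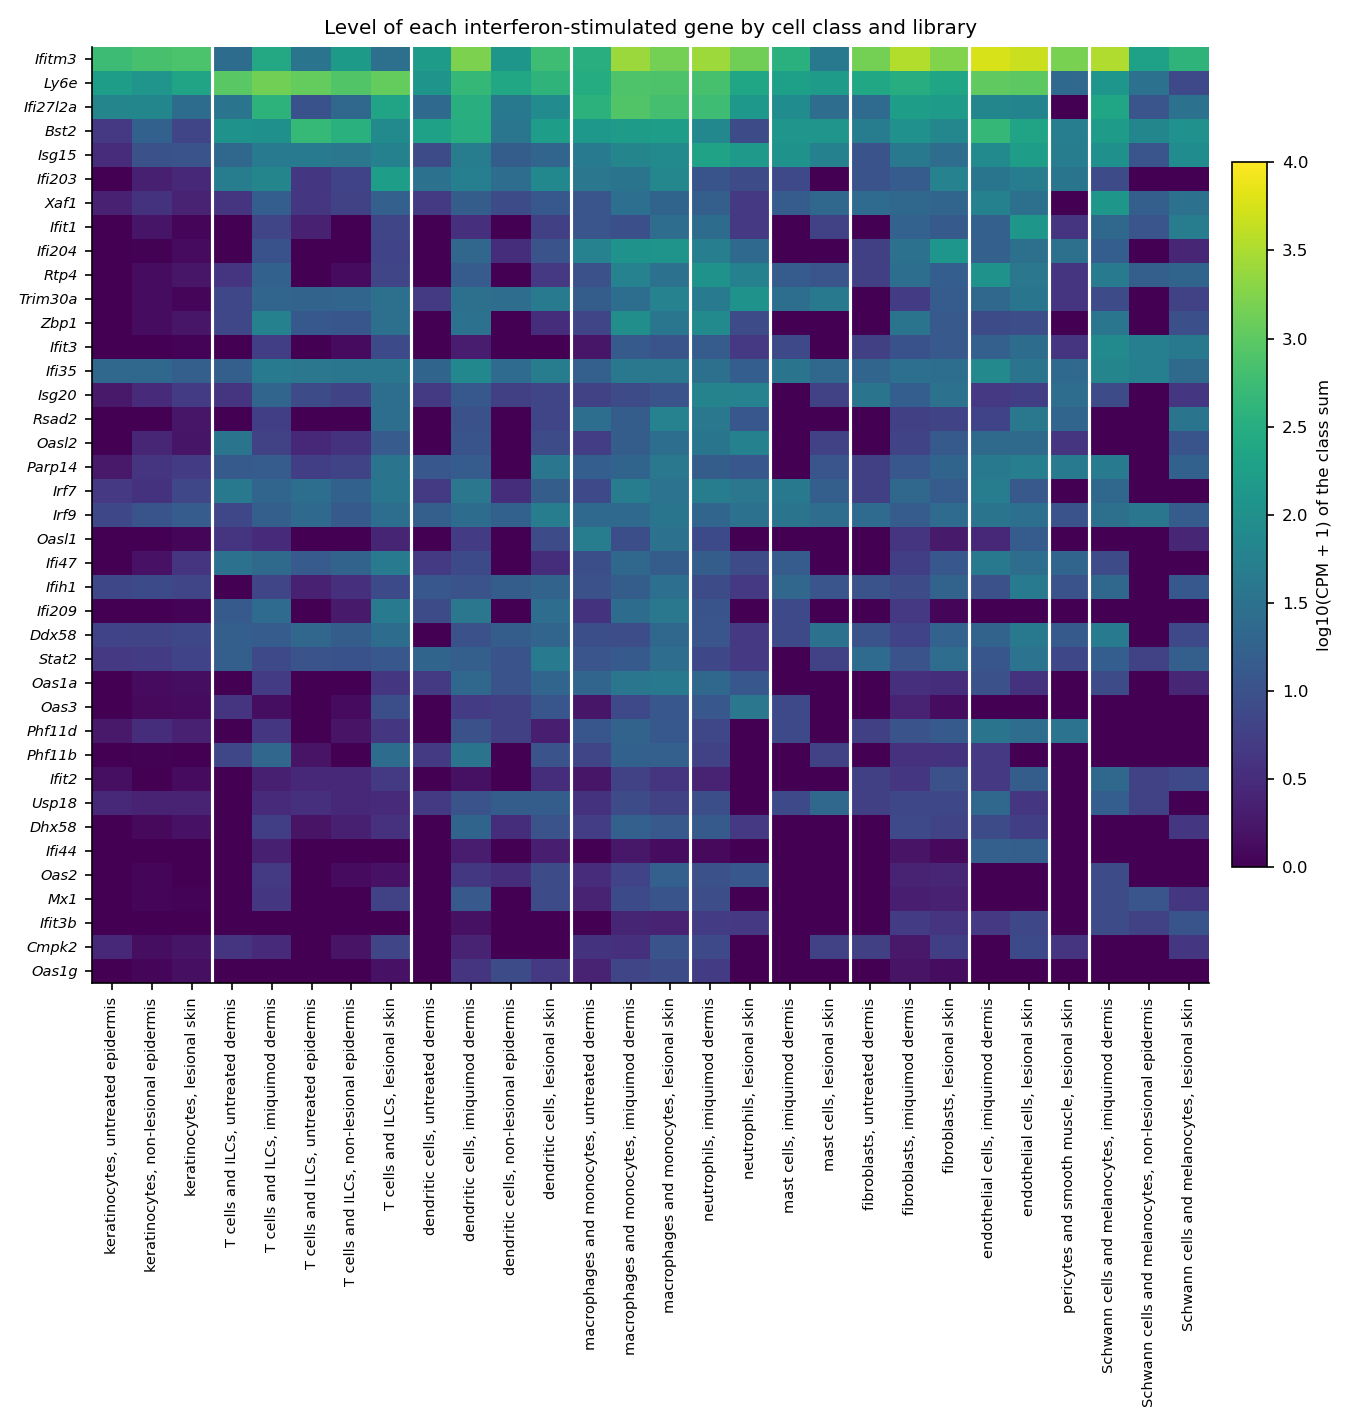
Level of each of the 39 genes (rows) in the 28 combinations of cell class and library (columns), as log10 of CPM + 1 in colour. Ifitm3, Ly6e, Ifi27l2a and Bst2 form the rows that are high in most columns, and keratinocyte columns are pale for nearly all the others.

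Ifitm3, a membrane protein that stops viruses from fusing with the cell, was the most abundant. It reached 5698 CPM in endothelial cells of imiquimod dermis and 4840 CPM in those of lesional skin, and made up 70.8% of the summed UMIs of the 39 genes in the former. In T cells of lesional skin it made up 1.32%. Ly6e, a lipid-anchored surface protein, was highest in T cells of imiquimod dermis (1417 CPM) and of untreated epidermis (1152 CPM). Ifi27l2a, a small membrane-associated protein, was highest in macrophages of imiquimod dermis at 817 CPM. Bst2 (tetherin), which holds budding viruses at the cell surface, peaked at 476 CPM in T cells of untreated epidermis. It was close to that, at 460.5 CPM, in endothelial cells of imiquimod dermis, and the order of these 2 was not tested.

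The classical effectors were less abundant. Isg15, a ubiquitin-like protein that is joined to other proteins, was found in all 28 combinations and was at 10 CPM or more in 23. Its highest levels were 199.9 CPM in neutrophils of imiquimod dermis and 176 CPM in endothelial cells of lesional skin, and its lowest was 2.27 CPM in keratinocytes of untreated epidermis. Ifit1, which binds RNA lacking a self-type cap, was at 0 in 7 combinations and at 10 CPM or more in 10, with 129 CPM in endothelial cells of lesional skin and 48.5 CPM in Schwann cells or melanocytes there. In the latter 1 of 61 cells held 24 of the 29 Ifit1 UMIs, and without it the level was 8.41 CPM. Irf9, the DNA-binding subunit of ISGF3, was the opposite case, with at least 10 CPM in 24 of 28 combinations, none at 0 and a highest value of 47.3 CPM. Ifi35 was at 10 CPM or more in all 28.

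**Figure D2:**
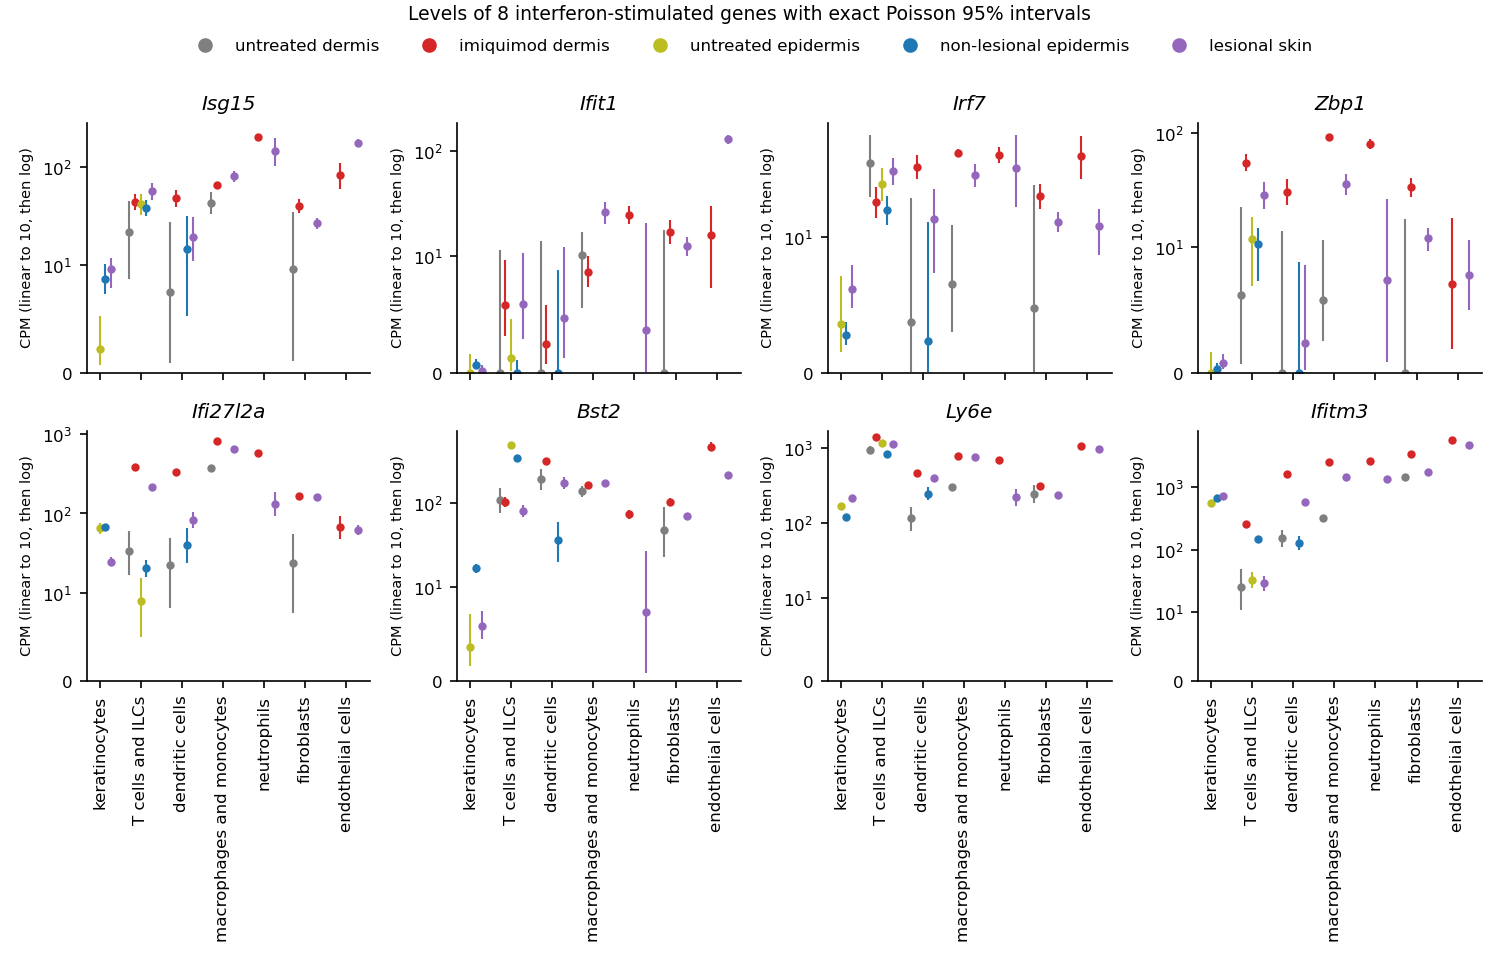
Level in CPM (axis linear to 10, then logarithmic) of Isg15, Ifit1, Irf7, Zbp1, Ifi27l2a, Bst2, Ly6e and Ifitm3 by cell class, 1 point per library with its 95% Poisson interval. Zbp1 points of imiquimod dermis lie above those of untreated dermis in each class that both hold, and keratinocyte points of Isg15, Ifit1, Irf7 and Zbp1 lie under 10 CPM in all 3 libraries.

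Summed over the 39 genes, keratinocytes carried 853 CPM in untreated epidermis, 964 CPM in non-lesional epidermis and 1057 CPM in lesional skin. Ifitm3 made up 65.7%, 70.6% and 68.9% of these sums. Without Ifitm3, Bst2 and Ly6e they were 122, 146 and 111 CPM, so lesional skin was then the lowest. Macrophages carried 1557 CPM in untreated dermis, 5109 CPM in imiquimod dermis and 3999 CPM in lesional skin. Without the same 3 genes these were 797, 1636 and 1638 CPM. Endothelial cells carried the most, with 8043 CPM in imiquimod dermis and 7029 CPM in lesional skin, largely Ifitm3. In imiquimod dermis macrophages came next and lay above neutrophils beyond counting error (ratio of 1.04, 1.02 to 1.05). Neutrophils (4925 CPM), Schwann cells or melanocytes (4623 CPM) and fibroblasts (4384 CPM) followed there. Neighbours among these did not differ beyond counting error (ratios of 1.07, 0.985 to 1.15, and of 1.05, 0.973 to 1.14). For the 15 effectors (the Ifit, Oas and Oasl genes, Isg15, Usp18, Mx1, Rsad2 and Cmpk2) the highest sums lay in endothelial cells of lesional skin (439 CPM), neutrophils of imiquimod dermis (392 CPM) and macrophages of lesional skin (334 CPM). Macrophages of imiquimod dermis held 199.8 CPM. Keratinocytes held 6.34 to 15.2 CPM of them. Macrophages of untreated dermis held 163 CPM, and 64.4 CPM without the 13 of 252 cells with most effector UMIs.

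Libraries were compared within a class where both held 20 or more of its cells, which gave 15 comparisons. To be measured, a gene needed 10 UMIs in the 2 class sums together and a level of 10 CPM in either library. It is called higher or lower where the whole 95% interval of its ratio lay beyond 1.5-fold. Medians are of the log2 ratio of CPM + 5. Of the 39 genes, 36 were measured in at least 1 comparison, all except Ifit3b, Oas1g and Cmpk2. Of the 36, 6 were never beyond 1.5-fold: Irf9, measured in 14 comparisons, Oas1a in 6, Phf11d in 5, and Ifit2, Mx1 and Ifi44 in 1 each. Because CPM shifts every gene when a few abundant ones differ, each count was repeated with a trimmed-mean scaling (TMM). It divided all ratios of a comparison by 1 factor, from -0.44 to 0.63 on the log2 scale, so a positive factor lowers them. The split with TMM is given where it differs.

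**Figure D3:**
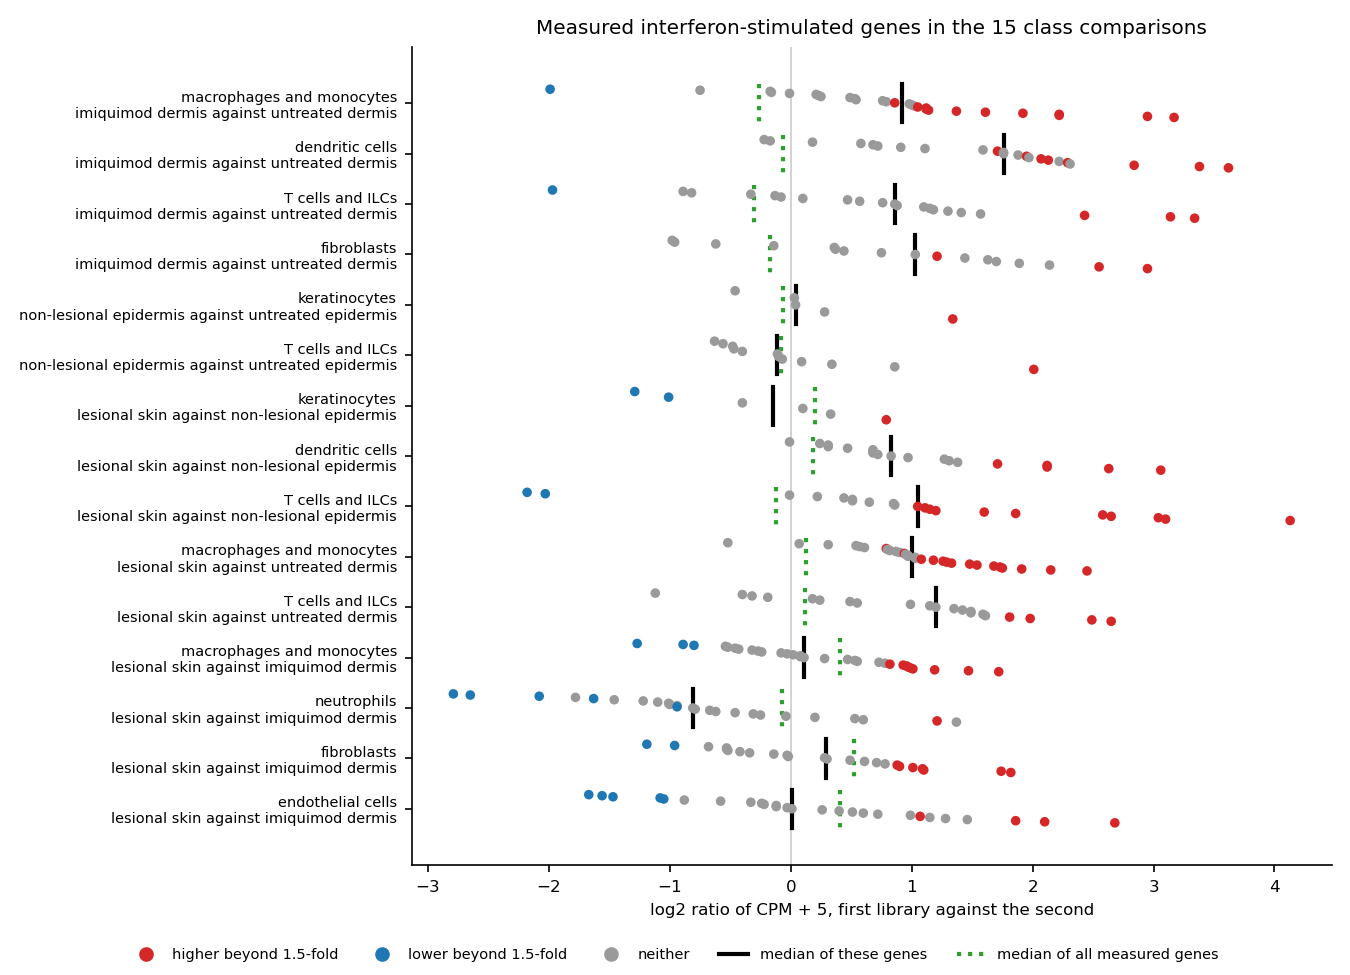
Log2 ratio of CPM + 5 for each measured gene of the list in 15 comparisons of 2 libraries within a cell class. Red and blue points lie beyond 1.5-fold with their whole 95% interval, the black bar is the median of the listed genes and the green dotted line the median of all measured genes; black lies above green by the most in dendritic cells of imiquimod against untreated dermis (1.76 against -0.06).

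Imiquimod dermis was compared with untreated dermis in 4 classes. In macrophages and monocytes 12 of 28 measured genes were higher and 1 was lower, where 6.49% of all measured genes were higher and 18.3% lower. The median was 0.92 against -0.26 for all genes, and with TMM 18 were higher and 1 lower. Among the nucleic acid sensors 4 of 6 were higher. Zbp1, which binds Z-form nucleic acid and can start necroptosis, had 8 UMIs (5.84 CPM) in untreated and 1838 UMIs (92.8 CPM) in imiquimod dermis, a 15.9-fold difference (8.05 to 36.9). Ifi209, a DNA-sensor family member of the Ifi200 cluster, differed 8.57-fold (3.32 to 31.6), Dhx58 3.56-fold (1.62 to 9.79) and Ifi204 1.88-fold (1.51 to 2.38). Among membrane proteins 3 of 4 were higher: Ifitm3 was at 321 and 2522 CPM (7.85-fold, 7.15 to 8.65), Ly6e at 303 and 790 CPM (2.61-fold, 2.37 to 2.88) and Rtp4 at 8.76 and 59.1 CPM (6.75-fold, 3.85 to 13.1). Irf7, the factor that amplifies interferon-alpha production, was at 6.57 and 49.0 CPM (7.47-fold, 3.92 to 16.4). The 12 genes called higher thus included 4 sensors, 3 membrane proteins and the amplifier Irf7, beside others such as Ifi27l2a and Ifit3.

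The classical effectors were mostly not called in the same macrophages. Isg15 was at 43.1 CPM in untreated and 65.0 CPM in imiquimod dermis, and its interval (1.16 to 1.99) reached below 1.5-fold. Ifit1 was at 10.2 and 8.64 CPM, Stat2 at 10.2 and 12.6 CPM, Irf9 at 22.6 and 22.4 CPM and Bst2 at 136 and 161 CPM. Few cells carried much of the effector sums. Without the top 5% of cells by effector UMIs, 13 of 252 and 109 of 2161, Ifit1 was at 0 and 1.99 CPM. The 15 effectors then summed to 64.4 and 113.65 CPM, in place of 163 and 199.8 CPM. Rsad2 (viperin), which makes a chain-terminating nucleotide, was at 27.0 CPM in untreated and 14.04 CPM in imiquimod dermis, a ratio of 0.520 (0.368 to 0.754). Of its 37 UMIs in untreated dermis 18 came from 1 cell, without which the level was 13.99 CPM. Oasl1, which lacks 2-5A synthetase activity and restrains Irf7 translation, was 5.82-fold lower in imiquimod dermis (4.28 to 7.82), at 8.03 against 46.7 CPM. Ifit3 was the exception among effectors, with 247 UMIs against 1 (17.1-fold, 3.04 to 678), and 14.9% of its 50-base stretches near the 3′ end also occur in another gene, Ifit3b. The 2 macrophage populations differed in make-up: Ly6c2, a monocyte gene, was at 23.4 CPM in untreated and 342 CPM in imiquimod dermis, and the 3 C1q genes summed to 8289 and 3365 CPM. Neutrophil markers summed to 449 and 3031 CPM in them, with a UMI for 9 and 12 of 12 markers. Of 15 immediate-early genes, which respond to tissue dissociation, 4 were lower in imiquimod dermis. The part of these in the ratios was not tested.

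In dendritic cells, 26 in untreated and 155 in imiquimod dermis, 8 of 23 measured genes were higher and 0 lower, against 3.71% and 7% of all genes. With TMM 11 were higher. Ifi27l2a was at 22.5 and 332 CPM (14.8-fold, 6.74 to 40.3), Ifitm3 at 154 and 1649 CPM (10.7-fold, 7.89 to 14.97) and Ly6e at 116 and 462 CPM (3.97-fold, 2.78 to 5.88). Isg15, with 2 and 96 UMIs, was at 7.503 and 47.7 CPM (6.35-fold, 1.71 to 53.2). Irf7 had 1 and 76 UMIs (10.1-fold, 1.75 to 402), and Zbp1 had 0 and 62 UMIs, at least 2.73-fold higher against a floor of 3 UMIs. These 2 intervals are wide because untreated dermis gave so few dendritic cells. The classes also differed in make-up: Cd207 (langerin, of Langerhans cells) was at 1433 CPM in untreated and 8.44 CPM in imiquimod dermis. Of the immediate-early genes 1 of 15 was higher and 3 were lower. The part of either was not tested.

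T cells and innate lymphoid cells of imiquimod dermis had 3 of 21 measured genes higher and 1 lower, against 2.67% and 9.43% of all genes, and with TMM 5 were higher and 1 lower. Ifi27l2a was at 34.0 CPM in untreated and 389 CPM in imiquimod dermis (11.5-fold, 6.37 to 23.0), and Zbp1 at 6.17 and 55.4 CPM (8.97-fold, 2.44 to 74.9). Ifitm3 was at 24.7 and 258 CPM (10.4-fold, 5.26 to 24.3), far under the 5698 CPM of endothelial cells in the same library, and free RNA was not tested as a source. Oasl2 was 6.84-fold lower (2.74 to 16.9). Isg15 was at 21.6 and 43.8 CPM and Irf7 at 40.1 and 19.4 CPM, both without a call. In fibroblasts, of which untreated dermis held 23, 3 of 17 were higher and 0 lower, against 3.72% and 9.29%, and with TMM 6 were higher. They were the same 3 names as in T cells. Zbp1 had 0 and 112 UMIs (at least 2.35-fold), Ifi27l2a was at 23.9 and 165 CPM (6.90-fold, 2.94 to 21.3) and Ifitm3 at 1481 and 3431 CPM (2.32-fold, 2.07 to 2.60). Zbp1, Ifi27l2a and Ifitm3 were thus called higher in all 4 classes of the comparison, which share the 2 libraries and so are not independent. Neutrophil markers summed to 188 and 2175 CPM in the T cell class and to 664 and 2688 CPM in the fibroblast class, with a UMI for 7 and 6 of 12 markers in the untreated and all 12 in both imiquimod classes, and their part was not tested. Immediate-early genes were lower in imiquimod dermis for 7 of 15 in T cells and 14 of 15 in fibroblasts, and their part was not tested either.

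Non-lesional K5. Pp6fl/fl epidermis was compared with untreated epidermis in keratinocytes and T cells, and few genes of the list stood apart. In keratinocytes 1 of 5 measured genes was higher and 0 lower, against 3.39% and 2.07% of all genes. That gene was Bst2, at 3.62 CPM in untreated and 16.8 CPM in non-lesional epidermis (4.63-fold, 2.32 to 10.8), while T cells of the latter library held 343 CPM and T cell markers summed to 327 and 1088 CPM in the 2 keratinocyte classes, with Ncr1 at 0 in both and Il7r at 0 in the untreated one. Whether T cell RNA contributes was not tested. Ifitm3 was at 561 and 681 CPM, Ly6e at 167 and 120 CPM and Ifi27l2a at 65.2 and 67.5 CPM. The untreated keratinocytes were shallow, with a median of 2199 UMIs against 9856, and 71.8% of them had under 0.5% mitochondrial UMIs, against 1.68%. In T cells, where Trdc, of gamma-delta T cells, was at 9387 and 8871 CPM, 1 of 12 was higher and 0 lower, against 3.84% and 1.54%. It was Ifitm3, at 33.0 and 148 CPM (4.48-fold, 3.35 to 6.11). Isg15 was at 41.4 and 37.9 CPM, Bst2 at 476 and 343 CPM and Zbp1 at 11.6 and 10.6 CPM. Keratinocyte markers summed to 2494 CPM in the T cells of untreated and 10211 CPM in those of non-lesional epidermis, where keratinocytes held 681 CPM of Ifitm3. Immediate-early genes were higher in the non-lesional library for 7 of 15 in T cells, and 1 of 15 was lower in keratinocytes. The part of either was not tested.

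Both K5. Pp6fl/fl libraries were then set against each other. Lesional skin and non-lesional epidermis differ in lesion, age, tissue depth and barcode set together, and these cannot be told apart. Keratinocytes, among which the keratin 5 promoter is active, had 1 of 6 measured genes higher and 2 lower, against 26.7% and 11% of all genes. With TMM 0 were higher and 2 lower. Ly6e was at 120 CPM in non-lesional and 212 CPM in lesional keratinocytes (1.76-fold, 1.66 to 1.87). Ifi27l2a was 2.73-fold lower in lesional ones (2.38 to 3.14), at 24.7 against 67.5 CPM, and Bst2 2.88-fold lower (2.17 to 3.88). T cell markers summed to 1088 CPM in non-lesional and 110 CPM in lesional keratinocytes, with a UMI for 15 of 16 in each. Of the immediate-early genes 4 of 15 were higher and 7 lower. The part of either was not tested. Isg15 was at 8.69 and 9.60 CPM, but 1 non-lesional cell held 83 of 141 UMIs, and with each library's highest cell left out the levels were 3.58 and 8.65 CPM. Ifit1 was at 0.678 and 0.194 CPM, and Rsad2 had 0 UMIs in the first. Effector genes thus lay under 10 CPM each in keratinocytes with and without lesions.

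T cells showed the largest count of this pair, with 11 of 21 measured genes higher and 2 lower, against 17.7% and 17.9% of all genes. The median was 1.05 against -0.12. Ifi203, a DNA-sensor gene of the Ifi200 cluster, had 17 UMIs in non-lesional epidermis and 323 in lesional skin, or 5.28 and 174.5 CPM (33.0-fold, 20.3 to 57.4). Its annotated span overlaps Mndal on the same strand, which limits how its reads can be assigned. Ifi209 differed 46.9-fold (15.5 to 232) from 3 UMIs, but 63.4% of its 50-base stretches near the 3′ end also occur in another gene. Rsad2 had 0 and 49 UMIs (at least 28.4-fold) and Phf11b 0 and 46 UMIs (at least 26.7-fold), with 42.6% of the 50-base stretches near the 3′ end of Phf11b also in Phf11c, Phf11d or Phf11a. Ifi27l2a was at 20.5 and 214 CPM (10.4-fold, 8.02 to 13.8), and Parp14, a mono-ADP-ribosyltransferase, at 5.59 and 33.5 CPM (5.99-fold, 3.50 to 10.8). Isg20, Oasl2, Xaf1, Zbp1 and Ifi47 lay between 2.56-fold and 4.83-fold. Isg15, at 37.9 and 56.2 CPM, and Irf7, at 16.8 and 34.6 CPM, were not called.

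Bst2 and Ifitm3, both membrane proteins, lay on the other side in these T cells. Bst2 was 4.26-fold lower in lesional skin (3.59 to 5.09), at 80.5 against 343 CPM, and Ifitm3 5.17-fold lower (3.88 to 6.997), at 28.6 against 148 CPM. The T cell classes differ in kind, since Trdc, of gamma-delta T cells, was at 8871 CPM in non-lesional and 1050 CPM in lesional T cells, and Trac at 97.6 and 360 CPM. Keratinocyte markers summed to 10211 and 391 CPM, with a UMI for 14 and 13 of 14. Immediate-early genes were higher for 5 of 15 and lower for 2. The part of these in the ratios was not tested. Against T cells of untreated dermis, which have a Trdc level of 2553 CPM, lesional T cells had 4 of 21 genes higher and 0 lower, against 5.27% and 4.4% of all genes. Ifi203 was at 46.3 and 174.5 CPM there (3.77-fold, 2.25 to 6.81), Ifi27l2a at 34.0 and 214 CPM (6.30-fold, 3.48 to 12.7), Rsad2 had 0 and 49 UMIs (at least 2.86-fold) and Isg20 1 and 50 UMIs (8.75-fold, 1.5 to 352). Bst2 and Ifitm3, at 108 and 80.5 CPM and at 24.7 and 28.6 CPM, were not called in that comparison. Of the immediate-early genes, 5 of 15 were higher there and 1 was lower. Both comparisons share the lesional library. Lesional skin and untreated dermis differ in lesion, genotype, age, tissue and barcode set together, and these cannot be told apart.

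In dendritic cells of lesional skin 5 of 19 measured genes were higher and 0 lower than in non-lesional epidermis, against 8.58% and 4.7% of all genes. Bst2 was at 35.7 and 173 CPM (4.83-fold, 2.83 to 8.85) and Ifitm3 at 129 and 576 CPM (4.48-fold, 3.37 to 6.04), the reverse of their order in T cells. Stat2, an ISGF3 subunit, had 4 and 36 UMIs (4.47-fold, 1.60 to 17.3). Parp14 had 0 and 31 UMIs (at least 5.13-fold) and Ifi209 0 and 22 UMIs (at least 3.64-fold). Cd207 was at 3164 and 546 CPM in these cells, and keratinocyte markers summed to 8533 and 221 CPM, so the classes differ in kind and in what they carry along. Among immediate-early genes 2 of 15 were higher and 7 lower. The part of these was not tested.

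Macrophages of lesional skin against those of untreated dermis gave 15 of 30 measured genes higher and 0 lower, against 8.87% and 5.17% of all genes, with a median of 1.0 against 0.13. With TMM 12 were higher. Here 3 of 5 measured genes of the group of 2-5A synthetases, their relative Oasl1 and the exonuclease Isg20 were higher. The products of the active synthetases activate RNase L. Oas2 was at 2.19 and 15.9 CPM (7.27-fold, 2.32 to 36.6), Oas3 had 1 and 29 UMIs (15.1-fold, 2.50 to 615) and Oasl2 was at 4.38 and 26.5 CPM (6.05-fold, 2.65 to 17.1). Among the sensors 4 of 7 were higher: Zbp1 (5.84 and 35.6 CPM, 6.10-fold, 2.97 to 14.5), Ifi209, Ifi204 and Ifih1 (MDA5; 8.76 and 28.03 CPM, 3.20-fold, 1.73 to 6.47). Trim30a, a regulator of innate signalling, was at 13.9 and 57.6 CPM (4.15-fold, 2.57 to 7.09) and Irf7 at 6.57 and 32.2 CPM (4.90-fold, 2.46 to 11.1). Ifitm3 was at 321 and 1441 CPM (4.49-fold, 4.07 to 4.97) and Ly6e at 303 and 750 CPM (2.48-fold, 2.23 to 2.76). Isg15 (43.1 and 79.9 CPM), Ifit1 (10.2 and 26.1 CPM), Rsad2 (27.0 and 57.6 CPM) and Stat2 (10.2 and 26.1 CPM) were not called. Immediate-early genes were higher for 5 of 15 and lower for 0, and their part was not tested. Lesion, genotype, age, tissue and barcode set differ together here too and cannot be told apart.

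Lesional skin against imiquimod dermis set the 2 inflamed libraries side by side, and here the scaling mattered most. These libraries differ in genotype, age, tissue, imiquimod treatment and barcode set together, and these cannot be told apart. In macrophages 9 of 31 measured genes were higher in lesional skin and 3 lower, against 30% and 6.44% of all genes, so the share of higher genes was close to that background. With TMM 2 were higher and 9 lower, and the median moved from 0.11 to -0.46. Rsad2 (14.04 CPM in imiquimod dermis and 57.6 CPM in lesional skin, 4.10-fold, 3.34 to 5.01) and Oasl1 (8.03 and 31.1 CPM, 3.87-fold, 2.93 to 5.08) were the most apart. Ifit1 was at 8.64 and 26.1 CPM (3.03-fold, 2.25 to 4.02). Of 244 lesional macrophages, the 2 with most effector UMIs held 18 and 28 Ifit1 UMIs. Without the top 5% of cells by effector UMIs, Ifit1 was at 1.99 CPM in imiquimod dermis and 4.90 CPM in lesional skin. Lower in lesional skin were Zbp1, 2.61-fold (2.12 to 3.24), Rtp4, 2.001-fold (1.59 to 2.55) and Ifitm3, 1.75-fold (1.69 to 1.81). Isg15 was at 65.0 and 79.9 CPM. Fibroblasts had 7 of 24 higher and 2 lower, against 34.3% and 8.79%, and with TMM 2 higher and 7 lower. Ifi203 was at 13.8 and 57.8 CPM (4.19-fold, 3.09 to 5.80) and Ifi204 at 31.2 and 123 CPM (3.95-fold, 3.22 to 4.88), while Zbp1 was 2.81-fold lower (2.13 to 3.72) and Ifitm3 1.94-fold lower (1.90 to 1.99). Immediate-early genes were higher in lesional skin for 12 of 15 in macrophages and 9 of 15 in fibroblasts, and their part was not tested.

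Neutrophils, 850 in imiquimod dermis and 81 in lesional skin, had 1 of 25 genes higher and 5 lower in lesional skin, against 10.4% and 9.75%, and with TMM 0 higher and 5 lower. Ifi27l2a was 4.35-fold lower (3.13 to 6.22), at 133 against 578 CPM, Ly6e 3.14-fold lower (2.43 to 4.13) and Ifitm3 1.92-fold lower (1.73 to 2.13). Zbp1 had 332 UMIs in imiquimod dermis and 2 in lesional skin, 10.9-fold lower (3.001 to 90.6), and Bst2 was 9.84-fold lower (2.70 to 81.6). Isg15 was at 199.9 and 144 CPM, and Trim30a, at 45.2 and 110.9 CPM, was the gene called higher (2.45-fold, 1.61 to 3.62). Of the lesional neutrophils 67.9% had under 0.5% mitochondrial UMIs, against 32.9%, and whether this reflects RNA quality was not tested. Without such cells Bst2 and Ly6e lost their call. Of the immediate-early genes 3 of 15 were higher, and their part was not tested. Endothelial cells, 46 and 246, had 4 of 27 higher and 5 lower, against 16.2% and 6.27%, and with TMM 3 higher and 6 lower. Cells under 0.5% mitochondrial UMIs made up 30.4% of the imiquimod and 5.69% of the lesional class, and median depths were 5956.5 and 11606 UMIs. Without such cells 3 were higher and 5 lower. Immediate-early genes were higher in lesional skin for 7 of 15, and their part was not tested. Ifit1 was at 15.9 and 129 CPM (8.09-fold, 4.22 to 17.8), Rsad2 at 5.31 and 39.1 CPM (7.36-fold, 2.46 to 36.2), Ifih1 at 8.86 and 45.2 CPM (5.11-fold, 2.14 to 16.0) and Isg15 at 81.5 and 176 CPM (2.16-fold, 1.60 to 2.99). Irf7 was 3.75-fold lower (2.19 to 6.34), Rtp4 3.002-fold lower (2.17 to 4.12), Bst2 2.14-fold lower (1.85 to 2.47), Ifi35 2.23-fold lower (1.52 to 3.23) and Usp18 6.58-fold lower (2.60 to 17.0) in lesional skin. Ifit1 and the amplifier Irf7 therefore lay on opposite sides in this class. With the highest cell of each gene left out in both libraries, 2 genes were higher in place of 4, Ifit1 among them.

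Effector UMIs were then counted cell by cell, after thinning each cell to 2000 UMIs so that depth was equal. Shallower cells were left out, so the shares describe the deeper ones. This removed 59 of 252 macrophages of untreated dermis, 130 of 2161 of imiquimod dermis and 28 of 244 of lesional skin. It also removed 142 of 850 neutrophils of imiquimod dermis and 230 of 493 keratinocytes of untreated epidermis. The share of macrophages with 1 or more effector UMIs was 17.1% in untreated dermis, 24.3% in imiquimod dermis and 31.0% in lesional skin (29.4%, 56.4% and 67.6% before thinning). Imiquimod and untreated dermis differed by 7.18 percentage points (0.964 to 12.2), and lesional skin exceeded untreated dermis by 13.9 points (5.62 to 21.9). Among dendritic cells of untreated dermis 0 of 24 had one (95% interval 0 to 14.2%), against 17.3% in imiquimod dermis. At 1000 UMIs these were 8% (2 of 25) and 12.3%, a difference of 4.26 points (-13.2 to 12.7), so the difference was not detectable at that depth. T cells of lesional skin had 14.04% and those of non-lesional epidermis 6.23%, a difference of 7.80 points (3.99 to 12.2). Schwann cells or melanocytes of imiquimod dermis had 36%, from 25 cells (17.97 to 57.5%). Neutrophils of imiquimod dermis had 34.0%, against 29.7% in lesional skin (difference -4.35 points, -14.8 to 8.20). Endothelial cells, which led in summed level, had 21.2% and 17.9%. Keratinocytes had 0.380% to 3.13% in the 3 libraries that held 20 or more of them. Free RNA was not measured.

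The gap between level and share in lesional endothelial cells came with an uneven spread over cells. Of their 1359 effector UMIs, the top 5% of cells, 13 of 246, held 1168, or 85.9%. The same cells held 20% of the UMIs of 21 other listed genes (all but the effectors, Ifitm3, Bst2 and Ly6e) and 6.35% of all UMIs. They were chosen by their effector counts, so an excess of effectors is built in. Without them the effector level was 65.9 CPM in place of 439 CPM. In endothelial cells of imiquimod dermis it was 104.9 CPM without the top 5% of cells, 3 of 46, in place of 181 CPM, so the order of the libraries turned round. The 3 highest cells had 282, 248 and 222 effector UMIs, among which the first had 153 of Isg15 and the third 107 of Ifit1. In 137 of the cells no effector UMI was found, and the 399 Ifit1 UMIs came from 17 cells. Without the top cells Ifit1 was at 4.83 CPM in lesional skin and 3.88 CPM in imiquimod dermis. The higher effector level of lesional endothelial cells, Ifit1 included, thus rests on few cells.

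**Figure D4:**
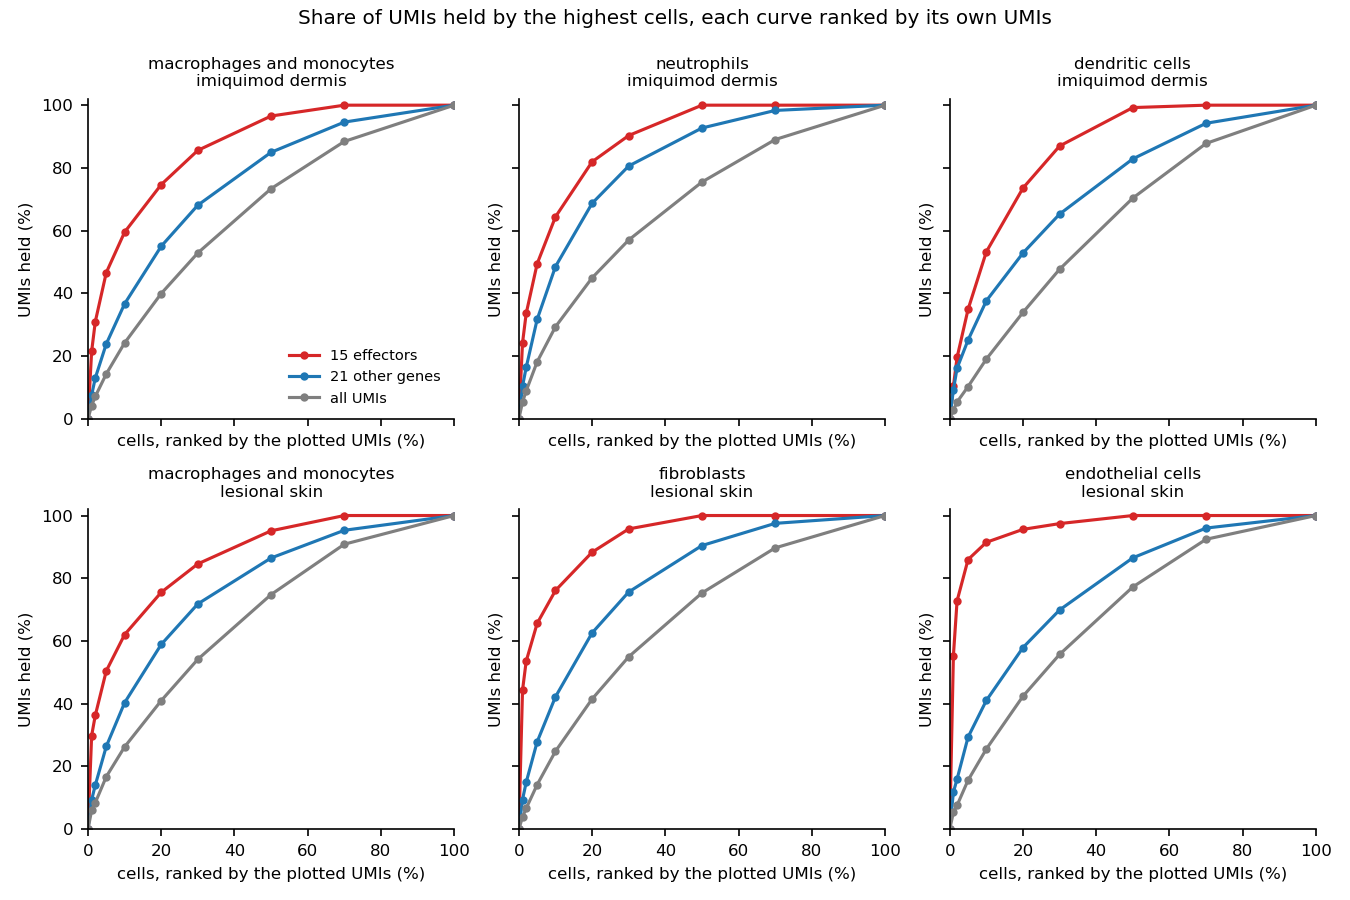
Percent of UMIs held by the highest-ranked percent of cells, in 6 combinations of class and library, for the 15 effectors, for 21 other genes of the list and for all UMIs, with cells ranked anew for each curve by its own UMIs. The effector curve lies above the other 2 in each panel. A smaller number of UMIs also raises such a curve, and this was not adjusted for. In lesional endothelial cells the top 5% by each ranking hold 85.9% of effector UMIs, 29.3% of those of the other genes and 15.6% of all UMIs.

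The top 5% of cells also held most effector UMIs in some small sums, where a small number of UMIs can reach few cells at most. They held 88.2% in non-lesional keratinocytes, and 84.2% and 83.1% in Schwann cells or melanocytes of non-lesional epidermis and lesional skin. Untreated keratinocytes had 14 effector UMIs, 1 in each of 14 cells, so a top share does not describe unevenness there. The top 5% held 65.6% of effector UMIs in lesional fibroblasts, 50.5% in lesional macrophages, 49.4% in neutrophils of imiquimod dermis, 46.6% in its macrophages and 64.7% in macrophages of untreated dermis. In non-lesional keratinocytes 1 cell held 95 of 228 effector UMIs, 83 of them Isg15. Within imiquimod macrophages thinned to 2000 UMIs, Isg15 was found in 21 of 30 cells with an Ifit1 UMI (70%) and in 185 of 2001 without one (9.25%). In neutrophils these were 19 of 27 (70.4%) and 132 of 681 (19.4%).

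Cells with 10 or more effector UMIs were set against the others of their class to see what the remaining 24 genes did. The cut was chosen after the values were seen, so what follows is a description. In macrophages of imiquimod dermis 75 of 2161 cells passed, and 23 of the 24 other genes were higher in them, against 2.77% of all measured genes, and 0 were lower, against 0.508%. Irf7 was at 375 CPM in these cells and 35.6 CPM in the others (10.5-fold, 9.17 to 12.1), and Zbp1 at 371 and 81.3 CPM. Ifitm3 was at 4732 and 2431 CPM. Irf9, at 34.3 and 21.9 CPM, was the gene without a call. The 75 cells were deeper, with a median of 9918 UMIs against 7908.5, and 21 further cells lay just under the cut with 8 or 9.

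**Figure D5:**
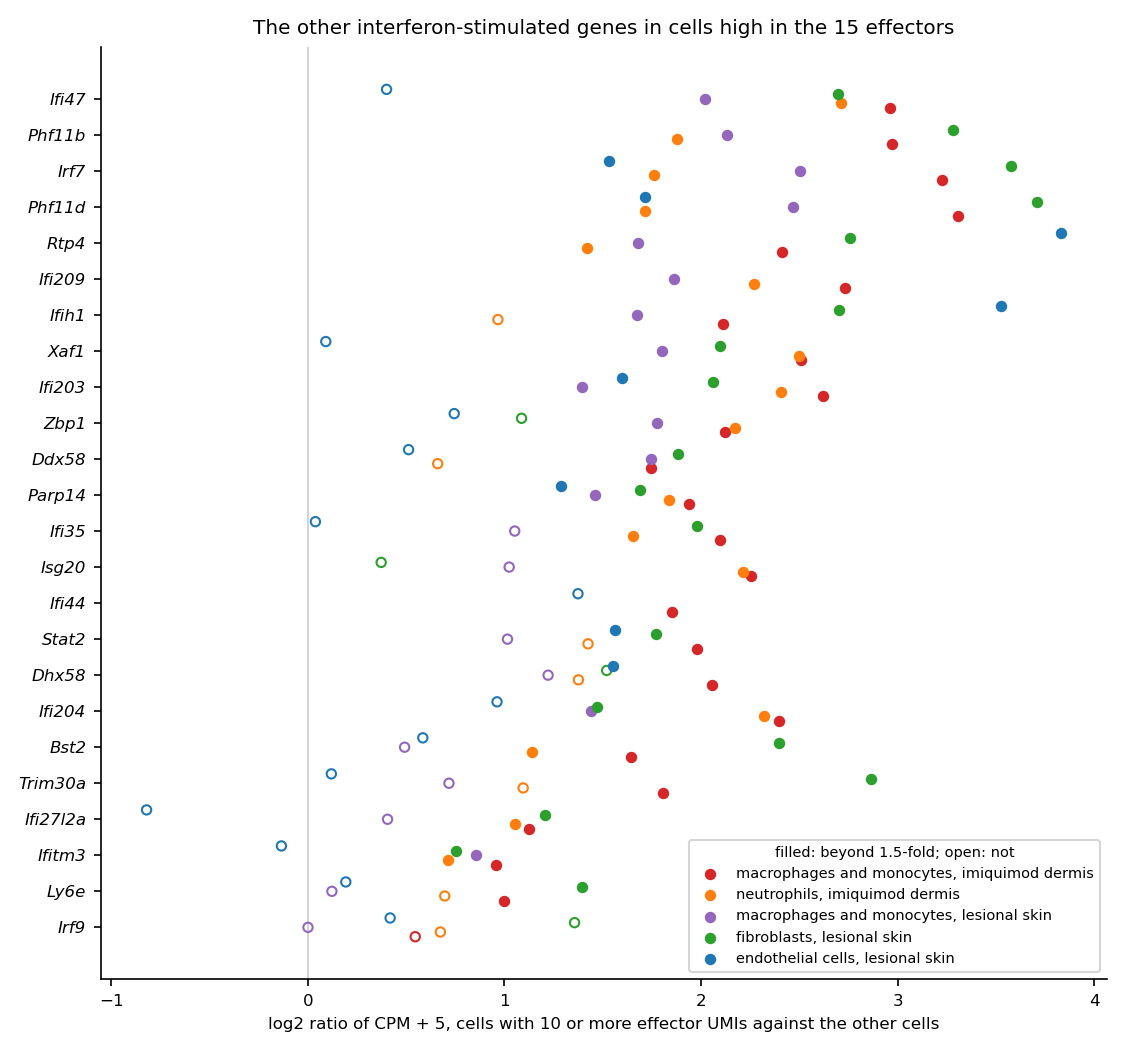
Log2 ratio of CPM + 5 of the 24 other genes between cells with 10 or more effector UMIs and the remaining cells of the class, in 5 combinations of class and library. Filled points lie beyond 1.5-fold with their whole 95% interval; nearly all are filled and above 0 in macrophages of imiquimod dermis, and fewer are in lesional endothelial cells, where 8 of 21 are.

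The other combinations showed the same direction with smaller counts. In neutrophils of imiquimod dermis (29 cells) 16 of 23 were higher, against 1.99%, and 0 lower, against 0.501%. Lesional macrophages (16 cells) had 14 of 23 higher, against 2.39%, and 0 lower, against 1.05%. Irf7 was at 145 and 21.5 CPM there. Lesional fibroblasts (11 cells) had 18 of 22 higher, against 3.31%, and 0 lower, against 1.35%, with Irf7 at 175 and 10.1 CPM. Lesional endothelial cells (14 cells) had 8 of 21 higher, against 2.01%, and 0 lower, against 1%. In them Rtp4 was at 278 and 14.8 CPM (18.7-fold, 12.6 to 28.04) and Ifih1 at 300.4 and 21.5 CPM, whereas Ifitm3, at 4442 and 4877 CPM, and Ifi27l2a, at 34.2 and 64.3 CPM, were not higher. Cxcl10, a chemokine outside the list that either interferon can raise, was at 2016 and 65.7 CPM in the same endothelial cells. Endothelial markers had similar median sums in both sets, 7121 and 7750 CPM.

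Transcripts of the ligands were scarce. Over 17 type I interferon genes, untreated dermis held 8 UMIs, all Ifnb1 in 1 cell, imiquimod dermis 25 UMIs in 13 of 4991 cells, 24 of them Ifnb1, and lesional skin 9 UMIs in 9 of 2652 cells. Both epidermis libraries held 0. For cells with such a UMI, a count of 0 allows a share of up to 0.331% of 905 cells in untreated epidermis. In non-lesional epidermis it allows up to 0.104% of 2873 cells. These limits are 3 over the number of cells, an approximation and not an exact interval. They do not cover cells that express the genes below detection. Ifng was more abundant in lesional skin, with 440 UMIs in 49 cells against 140 UMIs in 56 cells of imiquimod dermis and 4 UMIs in non-lesional epidermis. In T cells Ifng was at 146 CPM in lesional skin, 39.3 CPM in imiquimod dermis, 3.09 CPM in untreated dermis and 0.621 CPM in non-lesional epidermis. Cells with 3 or more of 6 plasmacytoid dendritic cell markers numbered 0 of 521 in untreated and 10 of 4991 in imiquimod dermis. They numbered 0 of 905 in untreated epidermis, 1 of 2873 in non-lesional epidermis and 4 of 2652 in lesional skin. Siglech, a plasmacytoid marker, had a UMI in 18 of the 521 and 51 of the 4991 cells, a larger share in untreated dermis. Whether the share of plasmacytoid cells differed was not tested.

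Few receptor genes of the pathway were called in macrophages. Of 5 measured, 0 were higher and 1 lower in imiquimod against untreated dermis, where 6.49% of all genes were higher and 18.3% lower, so the count is near that background. In lesional skin against untreated dermis 0 were higher or lower, against 8.87% and 5.17%. Tlr7, the receptor of imiquimod, was 3.33-fold lower in macrophages of imiquimod dermis (2.49 to 4.40), at 13.8 against 46.0 CPM.

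Of 31 further interferon-stimulated genes outside the list, 5 of 24 measured were higher and 3 lower in macrophages of imiquimod against untreated dermis, against 6.49% and 18.3% of all genes, with a median of 0.27. Ifitm1, the neighbour of Ifitm3, was at 10.2 and 819 CPM (80.2-fold, 47.8 to 147). Neutrophils of the same imiquimod library held far more, 8340 CPM in cells with 10 or more effector UMIs and 9474 CPM in the others. Neutrophil markers also differed between these macrophage classes, as given above, and neutrophil RNA was not tested as a source. In lesional against non-lesional T cells 12 of 23 were higher and 2 lower, against 17.7% and 17.9% of all genes. Of the genes that lean to interferon-gamma 8 of 10 were higher and 0 lower, with a median of 1.68. Those 8 were Cxcl10, Gbp3, Gbp7, Irgm1, Cd274, Tap1, Psmb8 and Psmb9, of which the last 3 serve antigen presentation on MHC class I. In dendritic cells of that comparison 5 of 9 were higher, against 8.58%. In keratinocytes Cxcl10 was at 27.6 CPM in non-lesional and 137 CPM in lesional skin, beside effectors near or under 10 CPM. The share of each interferon in these differences was not tested.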

How the data were processed

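Whole-number UMI counts per gene and barcode were used as deposited. Per the labels' protocols, skin was enzyme-digested, sorting took out dead cells, and libraries came from a Chromium Single Cell 3′ v3 kit. The submitters' processing notes name CASAVA, Cell Ranger and mm10, and the matrix headers, per the file headers, name software version 3.0.2. The treatment of multi-mapped reads is not given in these sources.

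Barcodes with at least 200 genes and at most 20% mitochondrial UMIs were kept. A cell was placed in a class by its 4 best marker genes, each read against its 99.5th percentile with levels up to 0.4 of it counted as 0. A class needed a score of 0.15, and cells whose second class scored over 0.5 of the first were set aside as mixed (1236 cells), with 525 unplaced. That step stood in for doublet removal. Scrublet called 1 to 29 doublets per library, too few to be used as a caller, so its highest scores were removed as an alternative only. UMIs were summed per class and library and scaled to CPM. Ratios have exact conditional binomial intervals, levels exact Poisson, shares Clopper-Pearson and differences of shares Newcombe intervals, all at 95%. No model was fitted, since each group has 1 library. The class placement and the interval rule were checked on simulated counts.

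Genes were named where the higher library had 50 CPM and the interval lay wholly beyond 2-fold, up to 8 highest and 6 lowest per comparison. Isg15, Ifit1, Ifit3, Irf7, Irf9, Stat2, Oasl1, Zbp1, Ifi27l2a, Bst2, Ly6e, Ifitm3, Usp18 and Rsad2 were followed throughout, and further genes called by the 1.5-fold rule were named by role. The members and lists were chosen with earlier results of these data known. The set of 15 effectors, the cut at 10 effector UMIs and the alternatives on C1q, Trdc and the highest cell were chosen after values were seen. Analyses used Python 3.11.15, numpy 2.4.6, scipy 1.17.1, pandas 2.3.3, matplotlib 3.10.9, scanpy 1.11.5 and leidenalg 0.10.2.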

Additional observations from a re-analysis of the deposited data

Results flagged for a closer look

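Between lesional skin and non-lesional epidermis, 3 genes lay beyond 1.5-fold on opposite sides in different cell classes. Bst2 was higher in lesional skin in dendritic cells, with a log2 ratio of 2.12, and lower in keratinocytes (-1.01) and in T cells (-2.03). Ifi27l2a was higher in T cells (3.10) and lower in keratinocytes (-1.29). Ifitm3 was higher in dendritic cells (2.12) and lower in T cells (-2.18). These classes come from the same 2 libraries, and the difference between classes was not tested. The levels of keratinocyte and T cell markers in these classes, which also differed between the libraries, are given with each result above.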

How the results depend on the processing

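No paired analysis was possible because each group has 1 library, and none could be left out for the same reason. The 36 calls chosen by the naming rule, which cover 11 genes, were kept in each setting that could be run, with 3 exceptions: Bst2 (-1.91) and Ly6e (-0.94) in neutrophils without cells under 0.5% mitochondrial UMIs, and Rtp4 in endothelial cells (-0.33) as a mean over cells. Keeping all deposited barcodes, and pseudocounts of 1 and 20 CPM, moved none of the counts or medians beyond their limits. Leiden clusters left under 20 dendritic cells in 2 comparisons and gave no value there. Where a change is given below, the cause was not tested.

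With TMM, imiquimod against untreated dermis had 5 genes higher in T cells and 6 in fibroblasts. Lesional against non-lesional keratinocytes had 0 higher and a median of -0.36. Against imiquimod dermis, lesional macrophages had 2 higher and 9 lower (median -0.46), fibroblasts 2 higher and 7 lower (median -0.50) and neutrophils 0 higher. As a mean over cells, imiquimod against untreated dermis had 5 higher and 0 lower in T cells and 6 higher in fibroblasts. Non-lesional against untreated epidermis had 2 higher in T cells. Lesional keratinocytes had 0 higher and a median of 0.01 in place of -0.15, lesional macrophages 25 higher than in untreated dermis and a median of 0.48 against imiquimod dermis, neutrophils 2 higher and endothelial cells 2 lower.

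With no filter on low values, keratinocytes had 2 genes higher in non-lesional against untreated epidermis. They had 3 higher in lesional skin, with the median at 0.06, and lesional T cells had 19 higher. With calls beyond 2-fold, 4 were higher in dendritic cells of imiquimod dermis, 0 in lesional keratinocytes and 9 in lesional against untreated macrophages. Against imiquimod dermis lesional macrophages had 4 higher and 1 lower, neutrophils 0 higher, fibroblasts 2 higher and 1 lower and endothelial cells 3 lower. A further setting left out a fixed list: Ifit3, Ifit3b, Oas1a, Oas1g, Oasl1, Oasl2, Phf11b, Phf11d, Ifi203, Ifi204 and Ifi209. Imiquimod against untreated dermis then had 0 lower in macrophages and 0 in T cells. Lesional against non-lesional T cells had 7 higher. Oasl1 and Oasl2 had been the genes called lower. Of the 50-base stretches near their 3′ ends, 0% also occur in another gene.

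With each gene's highest cell left out, imiquimod T cells had 0 lower, non-lesional T cells 2 higher, lesional neutrophils 0 higher and lesional endothelial cells 2 higher. Macrophages with a C1q UMI had 2 lower in imiquimod against untreated dermis and a median of -0.07 in lesional skin against imiquimod dermis. T cells with a Trdc UMI had 0 lower in imiquimod dermis and 2 higher in lesional skin against untreated dermis. Leiden clusters gave 8 higher in that last comparison, 2 higher in lesional neutrophils, and 4 higher and 5 lower in lesional fibroblasts. Removing the highest Scrublet scores gave 1 lower in lesional against untreated macrophages and 2 higher in lesional neutrophils. A filter at 500 genes and 10% mitochondrial UMIs gave 1 lower in lesional against untreated T cells. Without cells under 0.5% mitochondrial UMIs, neutrophils had 0 higher and 3 lower.

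In the order of the 10 lesional classes by summed level, 9 neighbouring pairs stand. The mean of log2(CPM + 5) kept 5 of them and the sum without Ifitm3, Bst2 and Ly6e kept 4. Without thinning, the share of cells with an effector UMI differed more between imiquimod and untreated dermis, by 27.0 points in macrophages, 36.2 in dendritic cells and 16.4 in T cells. It differed by 3.88 points between non-lesional and untreated keratinocytes, by 17.0 between lesional and non-lesional keratinocytes, by 12.9 between their T cells and by 38.3 between lesional and untreated macrophages. At 1000 UMIs lesional against non-lesional skin differed by 5.43 points in dendritic cells and 3.79 in T cells. Effector UMIs were few in the small classes of untreated dermis, with 4 in dendritic cells, 6 in fibroblasts and 21 in T cells. Whether depth limited the effectors more than the other genes was not tested.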
